A study of Homo sapiens with 4 samples.

Results

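The miR-200 family was described across 4 lines of HepG2, an established human liver cancer line. The family comprised miR-141, miR-200a, miR-200b, miR-200c and miR-429, taken wherever the miRNA name on the arrays was exactly one of these names, so that the other arms of their hairpins (the star forms) were not counted as members. All 5 members were found among the 1212 human miRNAs of the arrays, each at 3 repeat spots. Total RNA of HepG2-Twist1/Bcl-2 (transfected with pcDNA-Twist1 and pcDNA-Bcl-2 plasmids), HepG2-Bcl-2 (pcDNA-Bcl-2), HepG2-Twist1 (pcDNA-Twist1) and HepG2-vector (whose label gives the construct as none) was hybridised with 1 sample per line to 2 dual-colour miRNA arrays of LC Sciences. The transfected lines expressed their genes stably, and whether a line was 1 clone or a pool is not given in the sources used here. Array 1 held HepG2-Twist1 in Cy5 and HepG2-vector in Cy3, and array 2 held HepG2-Twist1/Bcl-2 in Cy3 and HepG2-Bcl-2 in Cy5. The dyes of a pair were not swapped, so the dye and the line differ together within each array, and Bcl-2 and the array cannot be told apart.

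In epithelial cells the miR-200 family restrains ZEB1 and ZEB2, transcriptional repressors of E-cadherin, and the ZEB proteins in turn repress both miR-200 gene clusters through E-boxes with the letters CACCTG. The family is therefore best known as a guardian of the epithelial state, which is lost in the epithelial-mesenchymal transition (EMT). Twist1 is a basic helix-loop-helix transcription factor that binds E-boxes and drives EMT, and Bcl-2 is a mitochondrial protein that restrains apoptosis. Comparing each line carrying Twist1 with its counterpart lacking it asks how far these miRNAs differ with Twist1.

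The mature sequences are shown because the family is defined by its seed, the bases 2 to 8 that pair with targets, and because near-identical members can share signal on an array. The seed is in capitals, and the sequences, read 5′ to 3′, are those of RefSeq, which matched the target sequence given on the array for all 5 members.
miR-200b: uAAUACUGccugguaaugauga
miR-200c: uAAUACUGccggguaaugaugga
miR-429: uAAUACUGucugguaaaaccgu
miR-200a: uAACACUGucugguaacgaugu
miR-141: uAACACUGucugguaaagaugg
The family holds 2 seeds that differ at 1 base. AAUACUG is shared by miR-200b, miR-200c and miR-429, and AACACUG by miR-200a and miR-141, and no other miRNA on the arrays carried either seed. Counted from 1 at the 5′ end, miR-200b and miR-200c were identical at 20 of 22 positions and differed by U11G and A22G, with 1 extra base at the end of miR-200c. miR-200a and miR-141 were also identical at 20 of 22 positions and differed by C17A and U22G. The seeds cut across the genomic order of the family: on GRCh38.p14, plus strand, miR-200b (chr1:1167160-1167181), miR-200a (chr1:1167916-1167937) and miR-429 (chr1:1169055-1169076) are encoded within 1984 bases inside the long non-coding RNA gene MIR200BHG (chr1:1162877-1170338). miR-200c (chr12:6963742-6963764) and miR-141 (chr12:6964155-6964176) are encoded within 493 bases inside MIR200CHG (chr12:6963245-6964447).

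The stretches around the starts of both host genes, from 250 bases before to 50 bases after, are shown with CACCTG in capitals, since members of one cluster are transcribed from a common start.
MIR200BHG: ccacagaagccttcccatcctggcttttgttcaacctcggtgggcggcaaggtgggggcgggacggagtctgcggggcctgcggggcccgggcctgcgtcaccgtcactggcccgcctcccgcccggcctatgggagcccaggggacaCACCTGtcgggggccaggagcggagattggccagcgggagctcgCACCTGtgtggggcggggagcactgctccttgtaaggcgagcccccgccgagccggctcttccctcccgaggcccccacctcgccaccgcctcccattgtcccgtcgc
MIR200CHG: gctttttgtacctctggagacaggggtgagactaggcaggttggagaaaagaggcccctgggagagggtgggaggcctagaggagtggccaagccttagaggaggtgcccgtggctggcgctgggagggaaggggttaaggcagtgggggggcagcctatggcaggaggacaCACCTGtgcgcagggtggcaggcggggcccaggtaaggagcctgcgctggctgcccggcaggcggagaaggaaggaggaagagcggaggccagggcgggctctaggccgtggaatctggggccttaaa
MIR200BHG (chr1:1162627-1162926) held the motif 102 and 58 bases before the start, and MIR200CHG (chr12:6962995-6963294) held it once, 78 bases before the start. The search covered both strands (CACCTG and CAGGTG, the same site read from either strand). The motif was present in 20.6% of 35116 RefSeq promoters of this length, and 3.49% held it at least 2 times. These matches are letters in a window and no measure of binding in these cells.

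Background on the arrays was read from 40 spots in each channel that carried no miRNA probe, 20 named empty and 20 named as background, which are called empty spots here. Their median was 159 in HepG2-Twist1/Bcl-2, 51.9 in HepG2-Bcl-2, 39.1 in HepG2-Twist1 and 110 in HepG2-vector. Between 160 and 197 of the 1212 miRNAs had all 3 spots above the brightest empty spot of their channel. HepG2-Bcl-2 was the only line with miRNAs bright in it alone, by a rule added after seeing the data. In it 4 miRNAs reached a normalized intensity of 100 and stayed under 32 in the other 3 lines. No miRNA did so in any other line. By the calls used further below, a larger share differed from HepG2-vector in HepG2-Twist1/Bcl-2, with 7.57% lower and 5.35% higher of 449 miRNAs. For HepG2-Bcl-2 over HepG2-vector these shares were 2.27% lower and 2.68% higher of 485. Of the liver markers, miR-122, which defines hepatocytes, was under 32 in every line, while miR-192 and miR-194 were above 100 in all 4. The arrays hold no probe for the mRNAs of Twist1 or Bcl-2, so the labels could not be checked against the introduced genes.

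Most of the family was dim. By the minimum of 32 in the study's methods, 4 of 5 members reached it in at least 1 line (miR-200b, miR-200a, miR-429 and miR-200c), against 624 of all 1212 miRNAs. In the authors' deposited normalized intensities 3 members did so (miR-200b, miR-200a and miR-200c). More of all miRNAs reached 32 on array 2, with 532 in HepG2-Bcl-2 and 482 in HepG2-Twist1/Bcl-2. On array 1 it was 286 in HepG2-Twist1 and 282 in HepG2-vector. By the deposited values these counts were 254, 219, 253 and 259. When all 3 spots had to lie above the brightest empty spot, 2 of 5 members passed, miR-200b and miR-200a, both in HepG2-Bcl-2 alone. In that channel 16.3% of all miRNAs passed. None of the 5 members did in HepG2-Twist1/Bcl-2, HepG2-Twist1 or HepG2-vector, where 14.5%, 13.2% and 13.3% of all miRNAs did.

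miR-200b was bright in 1 line. Its 3 spots read 147, 141 and 115 on the scanner in HepG2-Twist1/Bcl-2, all under the median empty spot, against 590, 548 and 404 in HepG2-Bcl-2, where the brightest empty spot read 68.1. In HepG2-Twist1 they read 38.8, 36.9 and 36.5, against 105, 109 and 93.6 in HepG2-vector, again under the median empty spots of both channels. The spots of HepG2-Bcl-2 were thus far above the background, and those of the other 3 lines lay within it. After background correction and loess, the normalized intensity was 9.31 ± 11.4 in HepG2-Twist1/Bcl-2, against 693 ± 147 in HepG2-Bcl-2, and 14.2 ± 3.22 in HepG2-Twist1 and 14.4 ± 4.86 in HepG2-vector (SD of 3 spots of 1 sample, as for all levels that follow). The 3 levels outside HepG2-Bcl-2 were under 32. The SD covers the error between spots of 1 hybridization and no difference between cultures.

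miR-200a, encoded next to miR-200b and carrying the other seed, had the same line on top. Its spots read 97.8, 79.1 and 78.5 in HepG2-Bcl-2, each above the brightest empty spot, while the spots of the other 3 lines did not exceed theirs. The normalized intensity was 19.0 ± 14.2 in HepG2-Twist1/Bcl-2, against 80.1 ± 20.7 in HepG2-Bcl-2, and 16.4 ± 2.72 in HepG2-Twist1 and 15.2 ± 1.97 in HepG2-vector. The levels outside HepG2-Bcl-2 were under 32, and none of the 3 spots of HepG2-Twist1/Bcl-2 reached the lowest spot of HepG2-Bcl-2. miR-200a and the brighter miR-200b are identical at 18 of 22 positions. Whether miR-200b took part in the miR-200a signal of HepG2-Bcl-2 was not tested.

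miR-429, the last member of the chromosome 1 cluster, stayed inside the background by the stricter rule. Its spots read 60.9, 63.8 and 51.2 in HepG2-Bcl-2, none above the brightest empty spot. The normalized intensity was 24.1 ± 2.57 in HepG2-Twist1/Bcl-2, against 42.2 ± 10.7 in HepG2-Bcl-2, and 19.6 ± 3.89 in HepG2-Twist1 and 21.1 ± 4.94 in HepG2-vector. HepG2-Bcl-2 was the only line at 32 or more, and in the deposited values it too was under 32, at 23.2.

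miR-200c, of the chromosome 12 cluster, lay near the minimum in every line. The normalized intensity was 36.5 ± 13.5 in HepG2-Twist1/Bcl-2, against 61.1 ± 10.1 in HepG2-Bcl-2, and 36.4 ± 1.66 in HepG2-Twist1 and 29.4 ± 5.95 in HepG2-vector. Only HepG2-vector was under 32 on this scale, which is normalized within arrays. After quantile normalization between the arrays the levels were 29.6 in HepG2-Twist1/Bcl-2, 52.1 in HepG2-Bcl-2, 44.0 in HepG2-Twist1 and 36.3 in HepG2-vector. There only HepG2-Twist1/Bcl-2 was under 32, so which line falls under the minimum is not firm. In HepG2-Bcl-2 the spots read 73.8, 69.4 and 63.3 on the scanner, and 2 of 3 were above the brightest empty spot. The deposited values were 24.8 in HepG2-Twist1/Bcl-2, 34.7 in HepG2-Bcl-2, 31.6 in HepG2-Twist1 and 23.8 in HepG2-vector, under 32 in all lines but HepG2-Bcl-2. miR-200c differs from miR-200b by few bases, and whether miR-200b took part in the miR-200c signal of HepG2-Bcl-2 was not tested.

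miR-141, which shares the miR-200c cluster and the miR-200a seed, was under 32 in every line by the mean of its spots. The normalized intensity was 29.0 ± 12.0 in HepG2-Twist1/Bcl-2, against 29.2 ± 7.70 in HepG2-Bcl-2, and 14.5 ± 2.80 in HepG2-Twist1 and 14.1 ± 1.91 in HepG2-vector. The deposited values were 15.2 in HepG2-Twist1/Bcl-2, against 10.5 in HepG2-Bcl-2, and 4.13 in HepG2-Twist1, against 3.16 in HepG2-vector. By the median of its spots it was at 34.2 in HepG2-Twist1/Bcl-2, against 32.3 in HepG2-Bcl-2, so its place under the minimum is not firm. Unlike the other 4 members, it did not stand highest in HepG2-Bcl-2 by more than the spread of its spots.

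**Figure D1:**
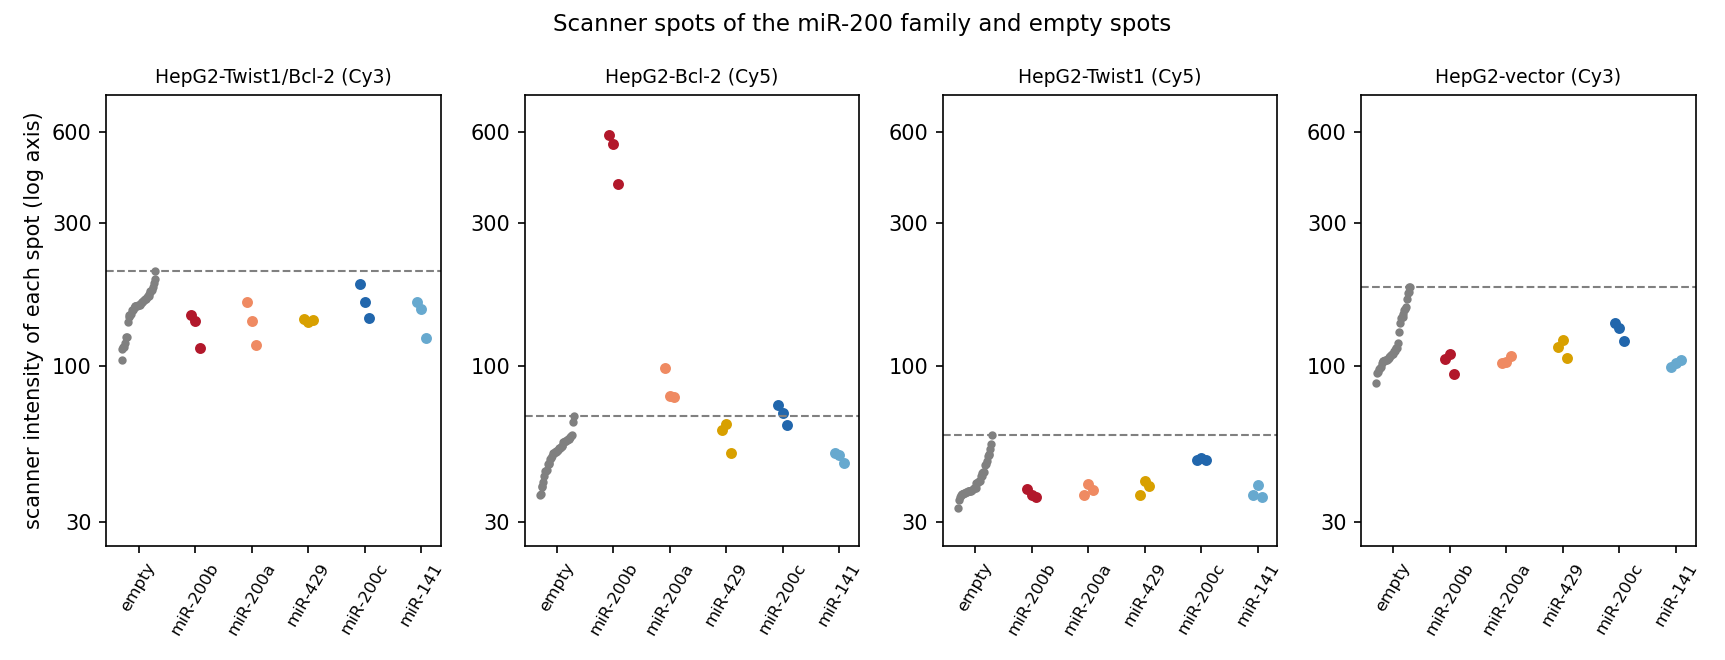
Scanner intensity (log axis) of each of the 3 repeat spots of the 5 members and of the 40 empty spots, 1 panel per line, with the brightest empty spot as a dashed line. All 3 spots of miR-200b and of miR-200a are above the line in HepG2-Bcl-2, and no member has a spot above it in the other 3 lines.

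**Figure D2:**
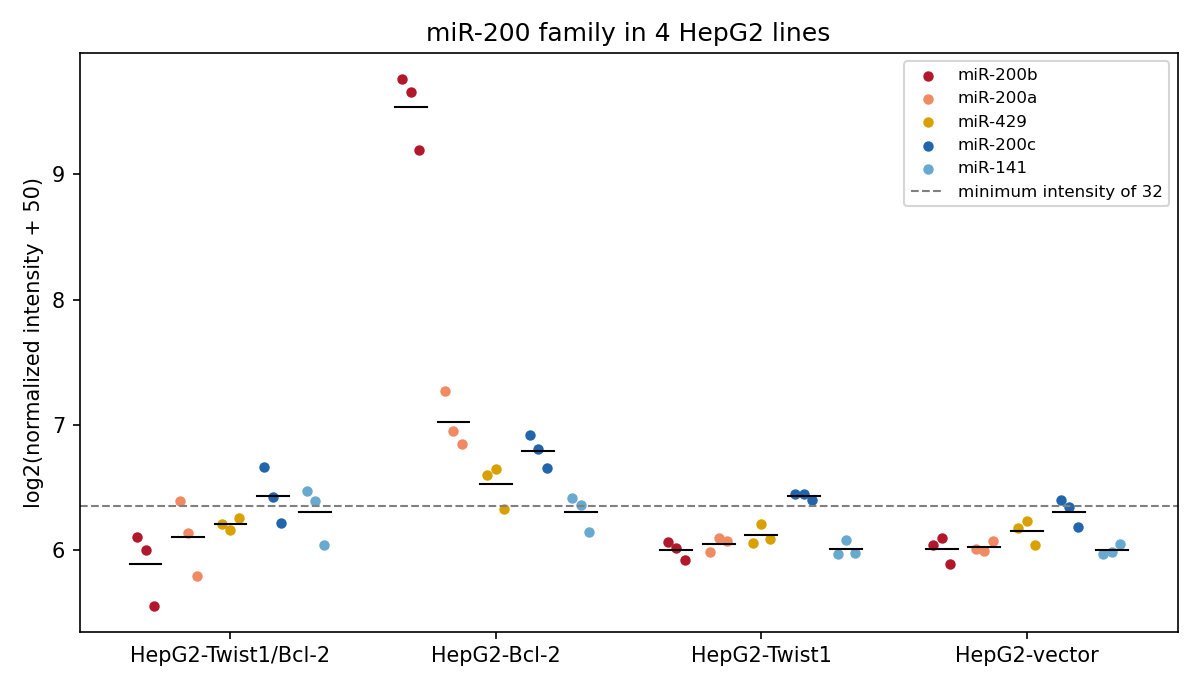
Normalized intensity of the 5 members in the 4 lines, on a log2 scale after adding the offset of 50. Points are the 3 repeat spots, bars their mean and the dashed line the minimum of 32, and miR-200b in HepG2-Bcl-2 is the one level far above it.

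The first question was whether the family differs between HepG2-Twist1 and HepG2-vector, the comparison the study was built on. It showed no member at a 2-fold difference. Log2 ratios are the mean over the 3 spots, on the scale that holds the offset of 50, which draws dim miRNAs toward 0. miR-200c, at 32 or more in HepG2-Twist1, was the 1 member of 5 that could be compared, and its log2 ratio averaged 0.12 ± 0.08 over the spots. The spots gave 0.05, 0.11 and 0.21. The sign was not stable, since the value was -0.04 with centring in place of loess and -0.61 without normalization. Leaving out normalization also moved the median log2 ratio of all 1212 miRNAs by -0.56. miR-200b at -0.01 ± 0.06, miR-200a at 0.03 ± 0.07, miR-141 at 0.01 ± 0.08 and miR-429 at -0.03 ± 0.09 were under 32 in both lines, and a difference between them was not detectable at these intensities. A miRNA was called where it was measured, at least 2-fold apart and had all 3 spots of one sign, and 0 of the 5 members were called, against 1.64% lower and 0% higher of the 304 miRNAs measured in these lines. The calls were all lower in HepG2-Twist1 and, named after their values were seen, were miR-140-3p, miR-19b, miR-1246, miR-1260b and miR-3613-3p.

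On array 2, both lines carried Bcl-2, and here miR-200b was far lower in the line with Twist1. Its spots in HepG2-Twist1/Bcl-2 lay within the background, so only a bound can be given: with that line set to the minimum of 32, miR-200b was at least 21.7-fold lower than in HepG2-Bcl-2, and by the deposited values at least 18.9-fold lower. The minimum of 32 is not the top of the background in that channel. A miR-200c spot of 187 there, under the brightest empty spot at 207, had a normalized intensity of 51.4. For miR-200b the log2 ratio on the offset scale was -3.65, with spots at -3.65, -3.65 and -3.64, and ran between -4.24 and -2.63 under the other settings. Its size is set in part by the offset, and the closeness of the 3 spots is no measure of its precision. miR-200a was at -0.91 ± 0.12, at least 2.5-fold lower by its levels, though its ratio on the offset scale missed the 2-fold call. By the deposited values the bound for miR-200a was 1.75-fold. miR-200c was at -0.36 ± 0.09 and miR-429 at -0.32 ± 0.22, and miR-141 was not measured, at 0.00 ± 0.08.

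miR-200b, miR-200a and miR-429 counted as measured on this array through HepG2-Bcl-2 alone, so ratios below 0 were largely fixed by the minimum for these 3, while miR-200c was at 32 or more in both lines. Of the 5 members 1 was called lower and 0 higher, beside 4.9% lower and 3.55% higher among the 592. The members that differed most were neighbours on chromosome 1 with different seeds. miR-200b stayed below 0 under every scaling tried. Without normalization, which moved the median of all miRNAs by 0.53, miR-200a was at -0.15 ± 0.26, within the spread of its spots, miR-200c at 0.45 and miR-429 at 0.33. The summed normalized intensity of the liver markers also differed on this array, mostly through miR-192. It was 385 in HepG2-Twist1/Bcl-2, against 714 in HepG2-Bcl-2, while on array 1 it was 551 in HepG2-Twist1, against 556 in HepG2-vector. Of 5 liver markers 3 were measured on array 2 and 1 was called, miR-192, lower at -1.29 ± 0.47. It had 152 in HepG2-Twist1/Bcl-2, against 443 in HepG2-Bcl-2. The other measured liver markers were miR-148a at -0.41 ± 0.17 and miR-194 at -0.04 ± 0.03. Their part in the miR-200b difference was not tested. The split of all calls also moved with scaling, with 29 lower and 21 higher by loess but 19 lower and 38 higher by centring alone. Array 2 held 1 sample of each line, which leaves no test between them, and lower levels from fewer cells holding the miRNA cannot be told apart from less of it per cell.

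**Figure D3:**
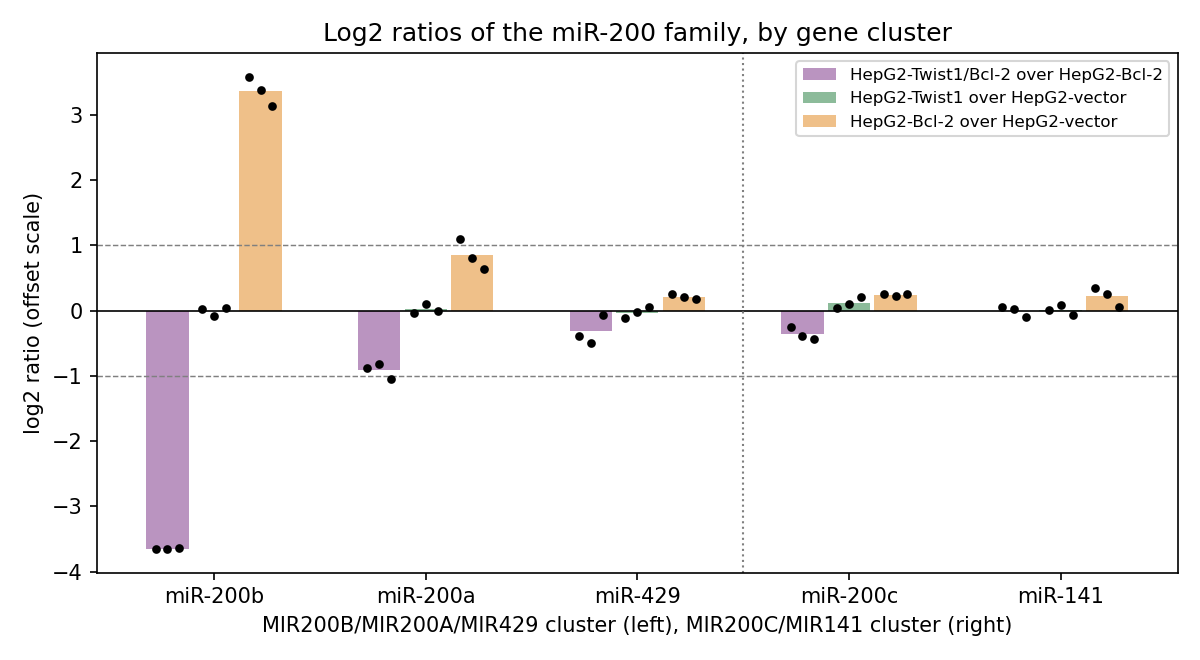
Log2 ratios of the members for 3 pairs of lines, with miR-200b, miR-200a and miR-429 of chromosome 1 left of the dotted line and miR-200c and miR-141 of chromosome 12 right of it. Bars are means and points the 3 repeat spots, dashed lines mark 2-fold, and miR-200b is past them on array 2 (-3.65) and in HepG2-Bcl-2 over HepG2-vector (3.37).

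The Twist1 lines and their counterparts were then tested over both arrays with limma, 2 ratios per miRNA. After Benjamini-Hochberg adjustment over 624 miRNAs, limma called 0 in either direction at 0.05, and 7 miRNAs were under that threshold before the adjustment. miR-200b averaged -1.83 with a standard error of 1.21 (limma, adjusted p = 0.989), since the ratio lay near 0 on array 1 and far below it on array 2. miR-200a averaged -0.44, miR-429 -0.17 and miR-200c -0.12, with limma's adjusted p also 0.989 for each. The ratio was below 0 on both arrays for miR-200b and miR-429, though by less than the spot SD on array 1, and on array 2 only for miR-200a and miR-200c. The fit has 1 residual degree of freedom before limma's prior, and each line is 1 sample, so these p-values measure only the spread between 2 hybridizations.

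**Figure D4:**
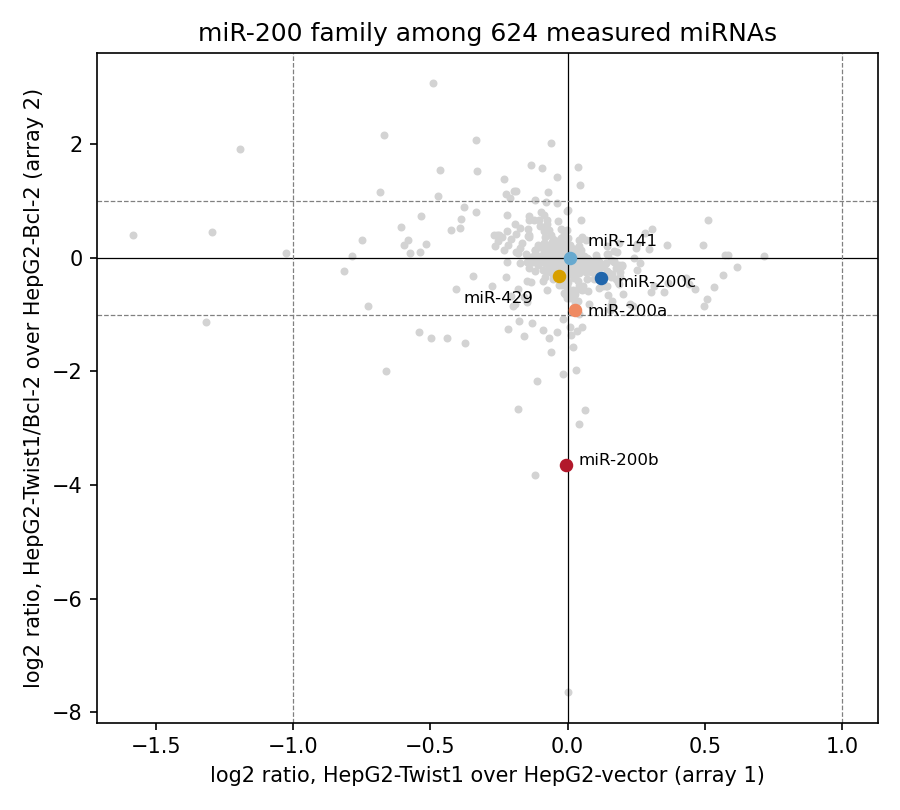
Log2 ratio of each of the 624 miRNAs at 32 or more in at least 1 line, together with miR-141, for HepG2-Twist1 over HepG2-vector (horizontal) and HepG2-Twist1/Bcl-2 over HepG2-Bcl-2 (vertical). Dashed lines mark 2-fold, and miR-200b lies at -0.01 across and -3.65 down while the other members lie within 2-fold on both axes.

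Levels in the Bcl-2 lines were also set against those of array 1, after quantile normalization between the arrays. For HepG2-Bcl-2 over HepG2-vector, miR-200b was at a log2 difference of 3.37 ± 0.23. Its levels were 624 in HepG2-Bcl-2 and 15.2 in HepG2-vector on that scale, at least 19.5-fold higher with HepG2-vector set to 32. The minimum of 32 is not the top of the background in HepG2-vector. A miR-101 spot of 179 there, under the brightest empty spot at 183, had a normalized intensity of 61.0 before normalization between the arrays. miR-200a followed at 0.85 ± 0.23, with levels of 70.2 in HepG2-Bcl-2 and 16.5 in HepG2-vector. miR-200c was at 0.24 ± 0.02, with both lines at 32 or more, and miR-429 at 0.22 ± 0.04, and miR-141 was not measured. As on array 2, miR-200b, miR-200a and miR-429 reached 32 through HepG2-Bcl-2 alone, which largely fixed their sign. Without normalization miR-200c was at -0.53 and miR-429 at -0.38, where the median of all miRNAs moved by -0.58. Of the 5 members 1 was called higher, miR-200b, beside 2.68% of the 485 miRNAs measured in these lines, and 0 were called lower, beside 2.27%. This comparison shares HepG2-Bcl-2 with that on array 2, so the same bright sample stands in both.

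HepG2-Twist1/Bcl-2, by contrast, had most members under 32, as had the lines of array 1, so differences between them were mostly not detectable. Its miR-200b level on the common scale was 3.79, against 14.9 in HepG2-Twist1 and 15.2 in HepG2-vector, all under 32. Over HepG2-Twist1 only miR-200c was measured among the members, at -0.24 ± 0.18, and over HepG2-vector at -0.12 ± 0.10. No member was called in either comparison, beside 6.39% lower and 6.61% higher of 454 miRNAs over HepG2-Twist1 and 7.57% lower and 5.35% higher of 449 over HepG2-vector. By the order of levels, miR-200b and miR-200a stood highest in HepG2-Bcl-2, and the other 3 lines were not separated from one another by either miRNA, all being under 32.

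Star forms, the other arms of the same hairpins, were dim throughout. Of miR-141*, miR-200a*, miR-200b* and miR-200c*, only miR-200b* reached 32, with 29.3 ± 11.1 in HepG2-Twist1/Bcl-2, against 42.7 ± 14.8 in HepG2-Bcl-2. Its log2 ratio for HepG2-Twist1/Bcl-2 over HepG2-Bcl-2 was -0.23 ± 0.08. None of the 4 had all its spots above the brightest empty spot in any line, and in the deposited values all 4 were under 32 throughout.

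miR-200b was 1 of the 4 miRNAs (0.33% of 1212) at 100 or more in HepG2-Bcl-2 and under 32 in the other 3 lines. The others, named after their values were seen, were miR-146a and miR-146b-5p, which restrain inflammatory NF-kB signalling, and miR-155, known from activated immune cells. The same 4 miRNAs were found in the deposited values. miR-146a had a normalized intensity of -2.71 in HepG2-Twist1/Bcl-2, against 9430 ± 662 in HepG2-Bcl-2, and 15.0 in HepG2-Twist1, against 14.9 in HepG2-vector. A value below 0 arises where the corrected signal, with the offset of 50 included, falls under 50 after loess. miR-155 had 22.3 ± 11.3 in HepG2-Twist1/Bcl-2, against 247 ± 19.7 in HepG2-Bcl-2, and was under 32 in the lines of array 1. As a check on blood cells, miR-142-3p, miR-223, miR-451 and miR-150 were read, and 0 of these 4 markers had all spots above the brightest empty spot in any line. Their summed level on the common scale was 89.0 in HepG2-Twist1/Bcl-2, against 106 in HepG2-Bcl-2, and 89.5 in HepG2-Twist1, against 86.8 in HepG2-vector. Before quantile normalization between the arrays, miR-223 (41.1) and miR-150 (38.8) were at 32 or more in HepG2-Bcl-2 alone. In the deposited values all 4 markers were under 32 in every line. The part of the blood markers in the levels of HepG2-Bcl-2 was not tested beyond these values.

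By Euclidean distance of the log2 levels over the 4 lines, with levels under 32 set to 32, the miRNAs closest to miR-200b were miR-146b-5p (1.18), miR-155 (1.57), miR-424 (1.80), miR-1181 (2.12) and miR-4258 (2.17). Of these, miR-146b-5p, miR-155 and miR-424 were also the 3 closest in the deposited values. miR-424 had a normalized intensity of 19.9 ± 8.27 in HepG2-Twist1/Bcl-2, against 939 ± 160 in HepG2-Bcl-2, but unlike miR-200b was above 32 in both lines of array 1. For miR-200c, mostly near 32, the distance was taken on the log2 scale after adding the offset of 50, with no floor. The closest miRNAs were miR-939 (0.13), miR-4278 (0.14), miR-498 (0.14), miR-550a (0.15) and miR-105 (0.16), which, like miR-200c, lay near the minimum in all lines. None of these 5 was among the 5 closest by the deposited values with the floor of 32, a ranking that differs in both the values and the rule. All distances were taken over 4 samples.

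**Figure D5:**
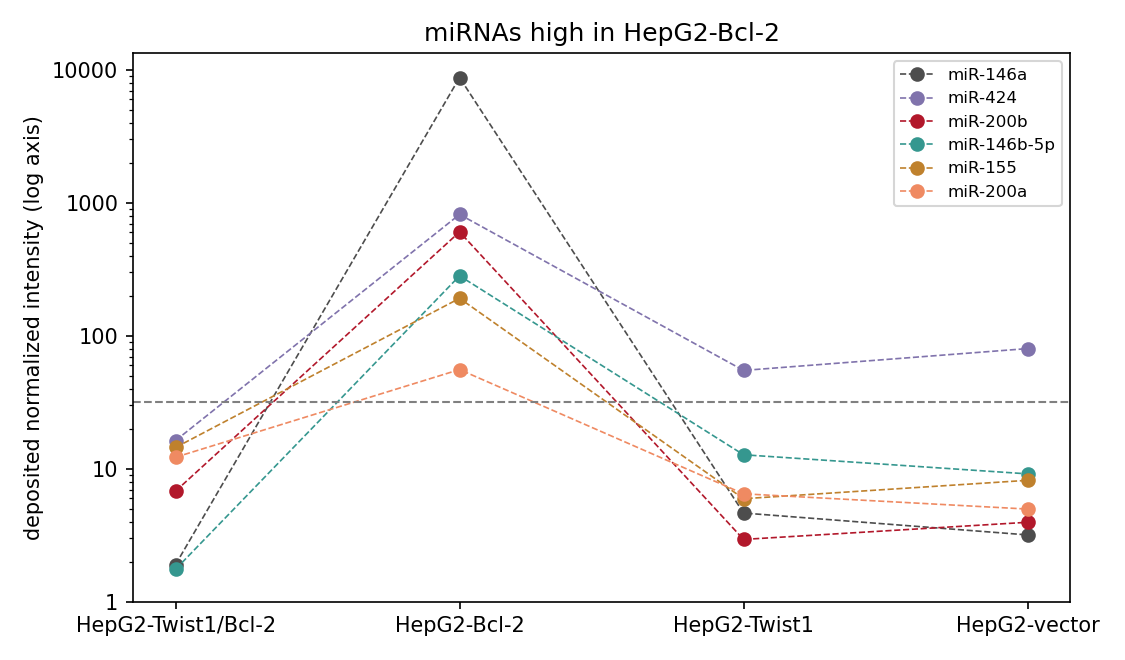
Deposited normalized intensity (log axis) of miR-200b, miR-200a and 4 other miRNAs in the 4 lines, with the minimum of 32 as a dashed line, each point being 1 sample and the dashed connectors a guide to the eye. All 6 stand highest in HepG2-Bcl-2, and all but miR-424 are under 32 in the other 3 lines.

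Other miRNAs with known roles in EMT were read as a setting for the family. Of 12 that restrain EMT or mark epithelia, 7 were measured in HepG2-Twist1 over HepG2-vector with 0 called and a median log2 ratio of -0.13, beside -0.02 for all measured miRNAs. For HepG2-Twist1/Bcl-2 over HepG2-Bcl-2, 8 were measured with a median of -0.28, and only miR-26b was called, higher at 1.16 ± 0.05, beside 3.55% higher among the 592. Its normalized intensity was 3333 in HepG2-Twist1/Bcl-2, against 1463 in HepG2-Bcl-2. On array 1 miR-26b was at -0.68 ± 0.09, below 0 at all 3 spots and short of 2-fold, with 550 in HepG2-Twist1, against 914 in HepG2-vector. No test was made of whether the pairs differ in miR-26b. On array 2 miR-203, which restrains stem-cell programmes, was at -0.07 ± 0.21, miR-34a, a p53 target, at -0.13 ± 0.13 and miR-30a, which targets SNAI1, at -0.95 ± 0.18, and none of these was called. miR-205, which acts on ZEB1 and ZEB2 together with the miR-200 family, lay near 32, at 35.7 in HepG2-Twist1/Bcl-2, against 35.2 in HepG2-Bcl-2. Of 12 EMT-promoting miRNAs, 8 were measured on array 1 with 0 called and 10 on array 2 with 3 called, all lower in HepG2-Twist1/Bcl-2, beside 4.9% lower among the 592. These were miR-21 at -1.26 ± 0.30, miR-155 at -2.04 ± 0.23 and miR-424 at -3.82 ± 0.20. The median of the 10 was -0.04, as for all miRNAs on that array. Of 5 mesenchymal markers (miR-143, miR-145, miR-199a-3p, miR-199a-5p and miR-214), 0 had all spots above the brightest empty spot in any line, nor had any of 3 muscle markers (miR-1, miR-133a and miR-206). The summed level of the mesenchymal markers on the common scale was 108 in HepG2-Twist1/Bcl-2, against 140 in HepG2-Bcl-2, and 111 in HepG2-Twist1, against 110 in HepG2-vector. That of the muscle markers was 56.1 in HepG2-Twist1/Bcl-2, against 125 in HepG2-Bcl-2, and 80.4 in HepG2-Twist1, against 70.9 in HepG2-vector. Like miR-200a, miR-133a was at 32 or more in HepG2-Bcl-2 alone, where it had 74.6. Also at 32 or more in HepG2-Bcl-2 alone were miR-1 (42.2), miR-145 (48.3) and miR-143 (33.2). After quantile normalization between the arrays miR-133a was also above 32 in HepG2-Twist1 (34.6), and miR-143 was under 32 in HepG2-Bcl-2 (28.8). With HepG2-Twist1/Bcl-2 set to 32, miR-133a was 2.33-fold lower there, miR-1 1.32-fold, miR-145 1.51-fold and miR-143 1.04-fold. These are not firm bounds, since in HepG2-Bcl-2 none of these miRNAs had all its spots above the brightest empty spot. None of these was called, and their part in the levels of the family was not tested.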

How the data were processed

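RNA of 4 HepG2 lines was measured on 2 LC Sciences arrays, 1 sample per line. The authors deposited scanner tables of spot intensity per dye, without a background column, and a table of normalized intensity values. Per the study's methods, the normalized values were background-subtracted and cyclic LOWESS-normalized. In the authors' analysis miRNAs under 32 in all samples were left out. The scanner values were the main source. They were corrected with limma's normexp model (offset 50), normalized by loess within arrays (span 0.3, 4 iterations, 333 control spots at weight 0) and, for levels across arrays, by quantiles of the average log intensity. Fits ran in R 4.3.3 (limma 3.58.1), sequences and plots in Python 3.11.15, and the scripts were tested on simulated data. The deposited and the normalized scanner values had a Pearson correlation between 0.997 and 0.999 on the log2 scale in each line, across the 141 to 145 miRNAs at 100 or more in both, which are not independent replicates. Ratios always run from the line with Twist1 over that without, or the Bcl-2 line over that lacking it. A miRNA was measured where 1 of the samples compared reached 32, and folds against a level under 32 are bounds against 32.

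The lines of a pair were not replicated, so the main test was limma over both arrays with Benjamini-Hochberg adjustment, and the methods' t-tests between repeat spots and between lines were run as alternatives. Few arrays and mostly dim probes limit the precision. Named miRNAs were all members, their star forms, the 5 closest to miR-200c, and listed EMT miRNAs and markers. The members and lists were chosen with earlier results of these data known. The closeness to miR-200b, the rule of 40 empty spots and the count of miRNAs bright in 1 line were added after seeing the data. Alternatives were other normalizations, minima of 16, 64 and 100, the median or a subset of repeat spots, and the deposited values.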

Additional observations from a re-analysis of the deposited data

Results flagged for a closer look

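miR-200c had opposite signs on the arrays, with all 3 spots of one sign on each. The log2 ratio was 0.12 ± 0.08 for HepG2-Twist1 over HepG2-vector and -0.36 ± 0.09 for HepG2-Twist1/Bcl-2 over HepG2-Bcl-2 (SD of 3 spots). With centring in place of loess both values were below 0, at -0.04 ± 0.13 and -0.08 ± 0.17, within the spread of the spots. The difference was not tested, and both values lie within 2-fold.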

How the results depend on the processing

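The ratio of miR-200b for HepG2-Twist1/Bcl-2 over HepG2-Bcl-2 (-3.65) was -3.29 with cyclic loess, -3.16 with centring, -2.63 without normalization, -3.95 with the median empty spot subtracted and -4.24 in the deposited values, and between -3.65 and -3.64 without 1 repeat spot position. It was called under each scanner setting listed. Among the other member ratios of single comparisons, of which 1 was called, 176 of 231 values under other settings stayed within the spread of their spots and 55 moved beyond it. Of the 231, 47 had the opposite sign, all of uncalled ratios. The count of members at 32 or more in at least 1 line (4) was 2 with the median empty spot subtracted, 2 at a minimum of 64, 1 at 100, 2 by the empty spots and 3 in the deposited values, and it was 5 without normalization, with the median of the spots, without repeat spot position 3 and at a minimum of 16.

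Counts over all miRNAs moved more. For HepG2-Twist1 over HepG2-vector the 5 lower were 23 with centring and 131 without normalization, and the 0 higher were 3 in the deposited values and between 0 and 1 without 1 repeat spot position (let-7d*). For HepG2-Twist1/Bcl-2 over HepG2-Bcl-2 the 29 lower were 19 and 10 with those settings, and the 21 higher were 38 and 107, and 34 with the median empty spot subtracted. The methods' t-test between repeat spots, at 0.01, gave 27 lower and 12 higher on array 1 and 52 lower and 45 higher on array 2. After Benjamini-Hochberg adjustment it gave 4 and 1, and 14 and 10. For the Twist1 lines over both arrays limma called 1 miRNA, miR-146a, without normalization and at minima of 64 and 100, and the methods' t-test between the lines called 1, miR-3652. For miR-200b limma's average of -1.83 kept its value at those minima while its standard error was 0.55 at 64 (adjusted p = 0.091) and 0.62 at 100 (adjusted p = 0.235). At 64 miR-200a had the same standard error, 0.55, and without normalization all 5 members had 0.70. In those settings limma used a variance shared between miRNAs rather than the spread of each between the arrays. The cause of the other shifts was not tested.

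The labels carry no replicate numbers, so no fit had a replicate block. The limma fit took its ratios within arrays, and with the array left out of the model it again called 0, with 4 miRNAs under 0.05 before adjustment. Signal over background limits the readings: all members but miR-200b and miR-200a lay among the empty spots in every line, or partly so for miR-200c in HepG2-Bcl-2, so differences between dim levels were not detectable. Dye, array and line cannot be separated for a single pair.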
